A study of Mus musculus with 6 samples.

Results

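The 9 MHC class I chains were followed with and without radiotherapy in SCC7, a line of mouse squamous cell carcinoma. They are the heavy chains H2-K1, H2-D1, H2-Q4, H2-Q6, H2-Q7, H2-T22, H2-T23 and H2-M3 and the light chain B2m, chosen by symbol as 9 of the 17030 genes in the deposited table. RNA sequencing covered 3 control libraries, from cells that received no treatment, and 3 irradiated libraries, from cells given 9 Gy. Both groups were grown in the same high-glucose medium with serum, and all 6 libraries are labelled day 0, which leaves the time from irradiation to harvest unknown. The question was which class I transcripts differed between irradiated and control cells. Values are FPKM, which divides fragments by transcript length and by the total of the library, so genes of unlike length are on the same scale. Whether the libraries of a group stem from separate cultures is not stated, and p-values reflect only the variation among these libraries, which may be technical. The line was derived from a C3H mouse, whereas the reference genome is that of another strain, and class I genes are among the most variable between strains. How far this shifts the heavy chain levels, their order and shares, and their ratio to B2m could not be checked.

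A class I molecule is a heavy chain that holds a short peptide and is stabilized at the cell surface by the light chain, beta-2 microglobulin. Classical heavy chains, H2-K and H2-D in the mouse, show peptides made inside the cell to CD8+ T cells. Non-classical chains are less variable and are read by natural killer cells, gamma delta T cells and other specialised lymphocytes. Transcription of both kinds is known to be raised by interferons and by NF-kB, through an interferon-stimulated response element (ISRE), a kappa B (kB) element and a downstream module of CCAAT and CRE-like motifs.

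The promoters of 4 members are shown because their motifs can be set beside how the genes moved. Each is the 250 bases before the RefSeq transcription start, 5′ to 3′ on the strand of the gene, in GRCm38.p6. Capitals mark matches on either strand to an ISRE core (GAANNGAAA, or GAAA, any pair of bases and GAAA) or to a kB motif (GGG, any pair of bases, TT, any base and CC, which the longer form GGGGATT followed by CCCC contains). The windows are chr17:34000348-34000597 for H2-K1 (minus strand, the first of 2 starts listed), chr17:35424600-35424849 for H2-Q6 (plus strand), chr17:36042743-36042992 for H2-T22 (minus strand) and chr2:122147437-122147686 for B2m (plus strand).
H2-K1: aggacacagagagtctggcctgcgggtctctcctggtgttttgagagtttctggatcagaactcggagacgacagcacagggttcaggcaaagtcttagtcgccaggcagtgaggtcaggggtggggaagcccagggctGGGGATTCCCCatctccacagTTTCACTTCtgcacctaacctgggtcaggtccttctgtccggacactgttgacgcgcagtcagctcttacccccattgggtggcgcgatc
H2-Q6: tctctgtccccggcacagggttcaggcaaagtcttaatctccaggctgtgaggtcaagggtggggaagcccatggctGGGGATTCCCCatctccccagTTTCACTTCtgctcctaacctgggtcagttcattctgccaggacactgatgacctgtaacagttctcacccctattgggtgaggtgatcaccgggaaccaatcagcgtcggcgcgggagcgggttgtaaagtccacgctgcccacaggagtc
H2-T22: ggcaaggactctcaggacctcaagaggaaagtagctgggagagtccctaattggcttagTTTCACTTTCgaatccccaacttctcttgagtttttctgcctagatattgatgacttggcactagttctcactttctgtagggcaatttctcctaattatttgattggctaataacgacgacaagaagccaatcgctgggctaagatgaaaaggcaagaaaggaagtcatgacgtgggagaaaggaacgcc
B2m: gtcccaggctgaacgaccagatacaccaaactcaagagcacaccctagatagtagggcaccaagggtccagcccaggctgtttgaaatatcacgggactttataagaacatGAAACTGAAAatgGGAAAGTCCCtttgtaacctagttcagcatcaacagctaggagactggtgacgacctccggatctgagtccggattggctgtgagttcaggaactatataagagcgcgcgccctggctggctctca

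H2-K1 and H2-Q6 both hold the full kB motif followed by an ISRE core that starts 21 bases further on, yet H2-K1 was called higher in irradiated cells and H2-Q6 was not, by the test described below. The H2-T22 window has the longer ISRE form and no kB match, and that of B2m has the longer ISRE form just before a kB match. RefSeq had a promoter for all 9 members, and the shares that follow are over windows of 300 bases, 250 before the start and 50 after it, on both strands. The ISRE core GAANNGAAA was present in 6 of 9 members (H2-K1, H2-D1, H2-Q4, H2-Q6, H2-Q7 and H2-M3) and in 7.56% of 27025 promoters. The form with GAAA on both sides, searched only after the promoters had been read, was in the other 3 (H2-T22, H2-T23 and B2m) and in 3.49% of promoters. The shorter kB motif was in 6 of 9 members, against 4.71% of promoters. Its full form was in only 6 of the 27025 promoters, those of H2-K1, H2-D1, H2-Q6, Aipl1, Atg16l2 and Pdzd2. GAANNGAAA together with the shorter kB motif was in 5 of 9 members and in 0.4% of promoters. Either ISRE form together with it was in 6 of 9 members and in 0.559% of promoters. The longer ISRE form was chosen after these promoters were read, so counts that include it are no independent support. ATTGG, the reverse of CCAAT, was in 9 of 9 against 37.9%, and TGACG, part of a CRE motif, in 7 of 9 against 21% of promoters. The heavy chain genes arose from one another by duplication, so their promoters are not independent, and a match is a description of letters, not a binding site. The letters are those of the reference strain and not of the C3H-derived line.

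Control 3 stood apart from the other controls. Its log2 values correlated across all genes tested at 0.956 with control 1 and 0.928 with control 2, against 0.989 between those, and at 0.960 to 0.966 with the irradiated libraries, which correlated at 0.994 to 0.995 with one another. On the log2(FPKM + 1) scale the typical gene (median) had an SD of 0.30 among controls and 0.08 among irradiated libraries. The FPKM sums were 693961 to 982553 in controls and 652691 to 663489 in irradiated libraries, and the number of reads is unknown. Of 9 squamous markers listed, Krt5, Krt14, Krt6a, Krt17, Cdh1 and Epcam were at or below 0.49 FPKM in all 6 libraries. Trp63 was at 0.12, 0.05 and 1.1 FPKM in controls 1, 2 and 3 and at 0.09 to 0.21 FPKM in irradiated libraries. Krt8 was at 1249, 1361 and 487 FPKM in controls 1, 2 and 3 and at 371 to 393 FPKM in irradiated libraries. Krt18, its partner keratin, was at 465, 528 and 212 FPKM against 100 to 113 FPKM. Krt18 was called lower by limma (log2 fold change -1.82, adjusted p = 0.0261), as were 308 of 11103 genes. With a library left out its adjusted p was up to 0.173. Krt8 did not pass the test (-1.29, limma adjusted p = 0.0686). The leukocyte markers Ptprc and Itgam were at or below 0.06 FPKM, no endothelial marker of 3 exceeded 0.58 FPKM, and of 9 leukocyte markers in the table Cd68 alone passed the filter, at 2.11 to 5.63 FPKM. Of 5 fibroblast markers, 2 were called higher by limma, beside 9.24% of all genes tested. They were the collagen gene Col1a1 (17.9 to 19.4 FPKM in controls, 40.6 to 53.2 FPKM in irradiated libraries) and Dcn (0.94 to 1.28 and 4.12 to 7.26 FPKM). Col1a2, Pdgfra and Pdgfrb had log2 fold changes of 0.05, 0.17 and -0.18, did not pass the test and were highest in control 3, and the median of the 5 was 0.17. The part of these differences in the class I values was not tested, and more RNA per cell cannot be told apart from a change in the mix of cells.

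Irradiated cells had higher levels of the classical chains, of 2 non-classical chains and of the light chain. H2-K1, H2-D1, H2-Q4, H2-T22 and B2m were called higher, which is 5 of the 8 members that passed the filter of at least 1 FPKM in at least 3 libraries, and 0 were called lower. The test was limma on log2(FPKM + 1) over 11103 genes, with a gene called at a Benjamini-Hochberg adjusted p below 0.05, and 9.24% of all genes tested were called higher. The median log2 fold change of the 8 was 0.99, against 0.17 for all genes tested. Every irradiated library lay above every control for 6 of the 8, as it did for 31.8% of all genes. The remaining member, H2-Q7, was too low to test.

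**Figure D1:**
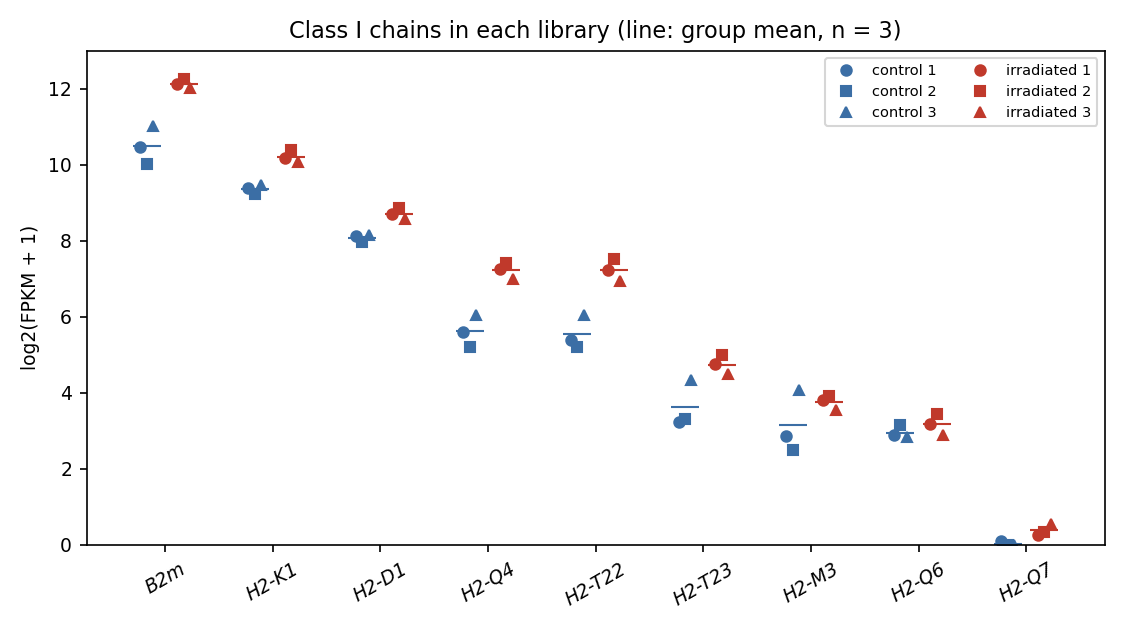
Level of each class I chain as log2(FPKM + 1) in the 3 control (blue) and 3 irradiated (red) libraries, with 1 symbol shape per library number and a line at each group mean. Groups are separate for H2-K1, H2-D1, H2-Q4, H2-T22, H2-T23 and B2m, and overlap for H2-Q6 and H2-M3, where control 3 reaches 15.8 FPKM.

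The classical chain H2-K1 (NCBI gene 14972, chromosome 17, 33996012 to 34000619, minus strand, GRCm38.p6) was the most abundant heavy chain. Its level was 665, 598 and 703 FPKM in controls 1, 2 and 3 and 1166, 1330 and 1079 FPKM in irradiated libraries 1, 2 and 3. The groups did not overlap, and the lowest irradiated library stood 1.53-fold above the highest control. The mean rose from 656 ± 53.0 to 1192 ± 128 FPKM (SD, n = 3 each), a log2 fold change of 0.86 (SE 0.16, 95% confidence interval 0.48 to 1.23, limma adjusted p = 0.0242). Control 3 moved this value little, since without it the log2 fold change was 0.91 and against it alone 0.76.

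H2-D1 (NCBI gene 14964, chromosome 17, 35263094 to 35267497, plus strand), the other classical chain, was the second most abundant heavy chain. It stood at 280, 247 and 282 FPKM in the controls and at 414, 464 and 378 FPKM in the irradiated libraries. Again the groups were separate, control 2 was the lowest of all, and irradiated 2 the highest. The mean was 270 ± 19.4 and 419 ± 43.0 FPKM, higher after irradiation (log2 fold change 0.63, SE 0.15, limma adjusted p = 0.041, n = 3 each). Both classical calls depended on the scaling: after a trimmed mean of log ratios, H2-K1 stood at 0.63 (log2 fold change, adjusted p = 0.0579) and H2-D1 at 0.40 (adjusted p = 0.113). That scaling moves the median of all genes from 0.17 to -0.03. Under quantile normalization they were 1.37 and 0.99, and both were called.

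Among the non-classical chains, H2-Q4 (NCBI gene 15015, chromosome 17, 35379617 to 35384674, plus strand), a chain of the Q region, had 47.5, 36 and 64.9 FPKM in the controls. The irradiated libraries had 152, 168 and 127 FPKM, so that the lowest of them stood 1.96-fold above control 3. The mean rose 3.02-fold, from 49.5 ± 14.5 to 149 ± 20.6 FPKM (difference of 1.60 in log2, SE 0.23, limma adjusted p = 0.0116, n = 3 each). Without control 3 its log2 fold change was 1.82, and against control 3 alone it was 1.18.

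H2-T22 (NCBI gene 15039, chromosome 17, 36037128 to 36042742, minus strand) encodes a chain of the T region that binds a subset of gamma delta T cell receptors and holds no peptide. Its controls were at 40.9, 35.8 and 65.1 FPKM and its irradiated libraries at 149, 183 and 123 FPKM. As with H2-Q4, control 3 was the highest control and irradiated 3 the lowest irradiated library, still 1.89-fold apart. The mean rose 3.21-fold, from 47.3 ± 15.7 to 152 ± 30.3 FPKM (difference of 1.69 in log2, SE 0.26, limma adjusted p = 0.014, n = 3 each), and the value was 1.94 without control 3 and 1.19 against it alone. Of the stretches of 50 bases in the GENCODE transcripts of H2-T22, 43.9% occur in another gene too, 37.5% in H2-T10, and of stretches of 100 bases 12.4% and 8.57%. The read length is not given in the labels, and reads from these stretches could be assigned to either copy.

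H2-T23 (NCBI gene 15040, chromosome 17, 36029977 to 36032701, minus strand) encodes Qa-1, the ligand of the CD94/NKG2 receptors of natural killer cells. It was at 8.45 and 8.85 FPKM in controls 1 and 2, at 19.1 FPKM in control 3, and at 26.0, 30.9 and 21.4 FPKM in the irradiated libraries. Groups did not overlap, but control 3 came within 1.12-fold of the lowest irradiated library. The difference did not pass the test (log2 fold change 1.12, SE 0.31, limma adjusted p = 0.0606, n = 3 each). Leaving out control 3 gave 1.47 with an adjusted p of 0.000105, in a fit that called 45.8% of all genes higher. Against control 3 alone the value was 0.41 (adjusted p = 0.126).

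H2-M3 (NCBI gene 14991, chromosome 17, 37270234 to 37274485, plus strand) encodes a chain that presents peptides beginning with N-formylmethionine, as bacteria and mitochondria make them. It was at 6.33, 4.62 and 15.8 FPKM in the controls and at 13.1, 14.1 and 10.7 FPKM in the irradiated libraries. Control 3 was the highest of all 6, so the groups overlapped, and the difference did not pass the test (log2 fold change 0.61, 95% confidence interval -0.32 to 1.55, limma adjusted p = 0.271, n = 3 each). Its sign depended on that library: the log2 fold change was 1.08 without control 3 (adjusted p = 0.000468) and -0.31 against control 3 alone (adjusted p = 0.119).

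H2-Q6 and H2-Q7 belong to the Qa-2 genes, whose proteins can be held on the membrane by a lipid anchor. H2-Q6 (NCBI gene 110557, chromosome 17, 35424850 to 35430055, plus strand) was at 6.37, 7.89 and 6.09 FPKM in the controls and at 8.09, 9.77 and 6.45 FPKM in the irradiated libraries. Control 2 lay above irradiated 3, so the groups overlapped, and the log2 fold change of 0.22 (95% confidence interval -0.22 to 0.65) did not pass the test (limma adjusted p = 0.393, n = 3 each). Its sign changed to -0.12 under quantile normalization. H2-Q7 (NCBI gene 15018, chromosome 17, 35439140 to 35443773, plus strand) was listed at 0.07 FPKM in control 1 and at 0 in controls 2 and 3, and at 0.2, 0.26 and 0.46 FPKM in the irradiated libraries. These levels are close to 0 and were not tested. Of 50-base stretches, 32.0% for H2-Q6 and 34.9% for H2-Q7 occur in another gene (10.8% and 17.2% of 100-base stretches), so the split between the Q genes is uncertain.

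The light chain B2m (NCBI gene 12010, chromosome 2, 122147687 to 122153082, plus strand) is the only member outside chromosome 17 and shares 0% of its 50-base stretches with another gene. Its level was 1404, 1031 and 2082 FPKM in controls 1, 2 and 3 and 4492, 4865 and 4154 FPKM in irradiated libraries 1, 2 and 3. The groups did not overlap, and the lowest irradiated library lay 2.00-fold above control 3, the highest control. The mean rose 2.99-fold, from 1506 ± 533 to 4504 ± 356 FPKM (difference of 1.64 in log2, SE 0.27, 95% confidence interval 0.99 to 2.29, limma adjusted p = 0.019, n = 3 each). It was 1.90 without control 3 and 1.11 against control 3 alone.

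**Figure D2:**
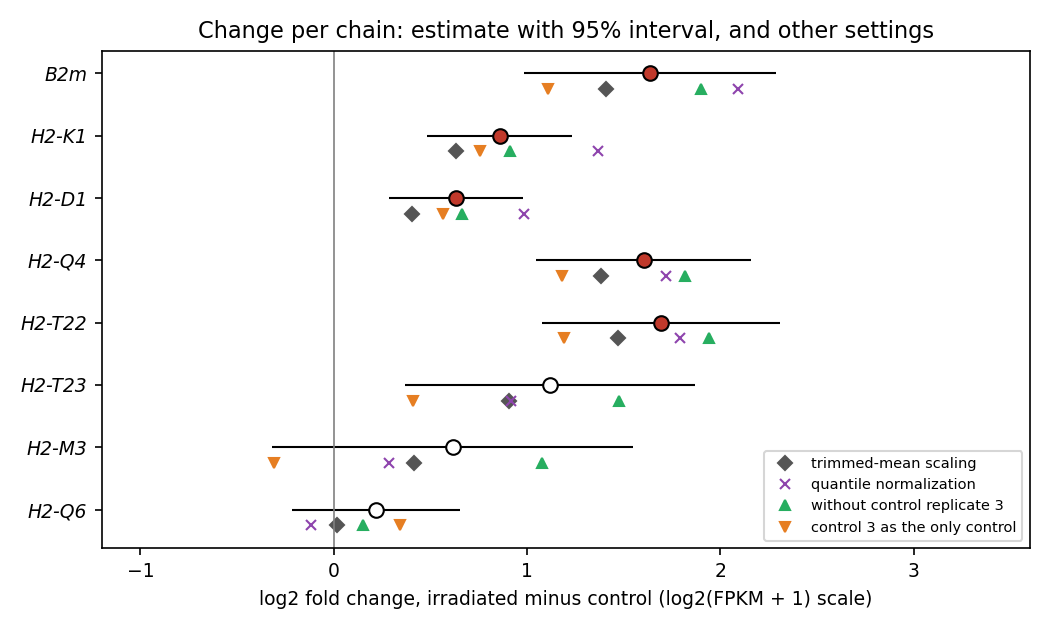
Log2 fold change, irradiated minus control, of each tested class I chain with its 95% confidence interval, as a circle with a bar, filled where called, above the values after trimmed-mean scaling, after quantile normalization, without control 3 and with control 3 as the only control. B2m, H2-T22 and H2-Q4 lie at 1.60 to 1.69, H2-K1 and H2-D1 at 0.86 and 0.63, and H2-M3 changes sign with the controls used.

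Which members were called depended on the libraries included. Leaving out control 1, 2 or 3 left 0, 4 and 7 of 8 members called, in fits that called 1.48, 4.01 and 45.8% of all genes higher. Leaving out irradiated 1, 2 or 3 left 0, 0 and 0, in fits that called 0.424, 0.507 and 0.782% of all genes higher. Calls thus rose and fell across the whole table with the library left out. H2-D1 was called in 1 of these 6 limma fits, that without control 3. Without control 2 its adjusted p was 0.0808, and H2-K1 narrowly kept its call (adjusted p = 0.0499). Without control 1 the adjusted p of the 5 called members was 0.0775 to 0.142, and without irradiated 1, 2 or 3 it was 0.108 to 0.205, 0.117 to 0.21 and 0.0754 to 0.162. Over these 6 fits the log2 fold change of H2-K1 stayed at 0.78 to 0.93, of H2-D1 at 0.55 to 0.70, of H2-Q4 at 1.40 to 1.82, of H2-T22 at 1.52 to 1.94 and of B2m at 1.39 to 1.90. With control 3 as the only control, 5 members were called among 22.8% of all genes, and after trimmed-mean scaling 3 (H2-Q4, H2-T22 and B2m) among 5.65%. With limma's array weights, which weight each library by its spread, 8 were called, but so were 54.0% of all genes.

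The members shared an order of libraries, a pattern that was noticed after the values were seen. In all 8 tested, irradiated 2 was the highest and irradiated 3 the lowest of the irradiated libraries, an order that 19.4% of all genes had. Control 3 was the highest control in 7 of 8, against 52.8% of all genes, and H2-Q6 was the exception, with control 3 lowest. Members are not independent of one another, and these counts carry no test.

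Summed over the 8 heavy chains, which is less exposed to the split of reads among copies, the level was 1055, 939 and 1156 FPKM in the controls and 1929, 2201 and 1746 FPKM in the irradiated libraries. The sums did not overlap. Their mean was 1050 ± 109 and 1959 ± 229 FPKM, 1.86-fold apart (exact two-sided permutation p = 0.1, the smallest that 3 against 3 allows). When all rows of the H2-Q genes and all rows of the H2-T genes were each summed to 1 feature, both features were called higher by limma (log2 fold change 1.32, adjusted p = 0.0136 for H2-Q and 1.52, adjusted p = 0.0213 for H2-T).

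The balance of light and heavy chain transcripts differed as well. The ratio of B2m to summed heavy chains was 1.33, 1.10 and 1.80 in controls 1, 2 and 3 and 2.33, 2.21 and 2.38 in irradiated libraries, with no overlap. This ratio is taken within a library and does not depend on its scaling. The mean was 1.41 ± 0.358 and 2.31 ± 0.0862, a log2 difference of 0.74 (exact two-sided permutation p = 0.1, the smallest possible, n = 3 each), and 0.93 without control 3. With H2-K1 and H2-D1 alone as the heavy chains it was 0.84.

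Within the heavy chains, the 6 non-classical members made up 10.4, 9.92 and 14.8% of the summed FPKM in the controls and 18.1, 18.5 and 16.6% in the irradiated libraries. Means were 11.7 ± 2.69% and 17.7 ± 1.01% (exact two-sided permutation p = 0.1, n = 3 each). H2-D1 took 25.8 ± 1.19% of the sum in controls and 21.4 ± 0.295% in irradiated libraries, again without overlap. The share of H2-K1 was 62.5 ± 1.53% and 60.9 ± 0.773%. The order of levels was the same in both groups for the most abundant chains, with H2-K1 above H2-D1 and both above H2-Q4 and H2-T22, whose ranges overlapped in both groups. Next came H2-T23, H2-M3 and H2-Q6 in that order of means. H2-M3 overlapped both others in the controls (4.62 to 15.8 FPKM, against 8.45 to 19.1 for H2-T23 and 6.09 to 7.89 for H2-Q6) and neither in the irradiated libraries, and H2-Q7 was the lowest.

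**Figure D3:**
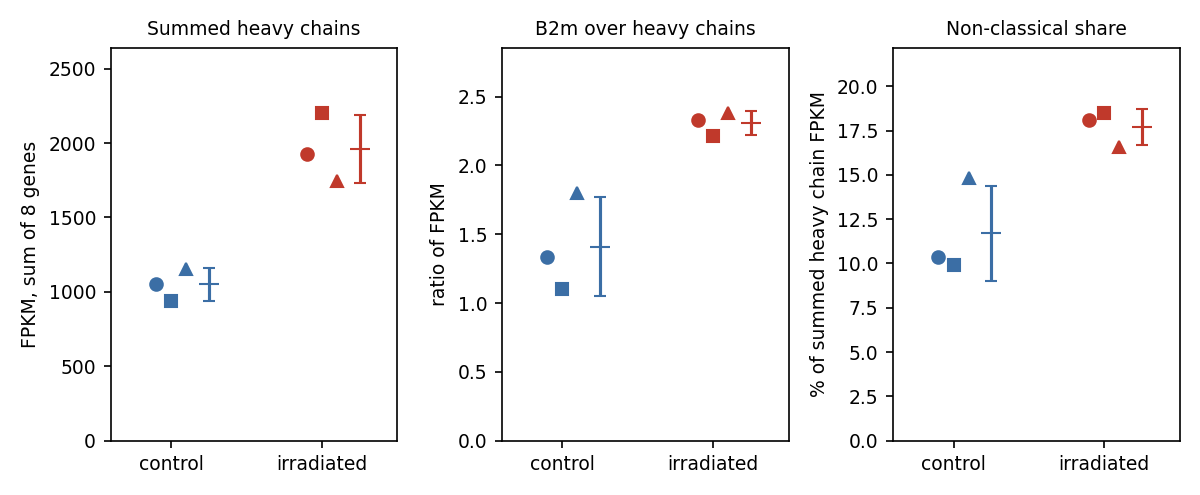
The 3 panels give the summed FPKM of the 8 heavy chains, the ratio of B2m to that sum, and the percent of the sum from the 6 non-classical members, per library (symbols) with mean and SD (bars). Every irradiated library lies above every control in each panel, and control 3 is the highest control.

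Genes with the most similar pattern were found by the root mean square difference of centred log2(FPKM + 1) over the 6 libraries. For H2-K1 they were Slc35e3 (0.0522), Angel1 (0.0580) and Ndor1 (0.0655), while H2-D1 stood at 0.117 from it. For H2-D1 they were Klf2 (0.0499), Mark4 (0.0505) and Mfsd9 (0.0590). B2m was nearest to the chemokine Cxcl2 (0.0774), the interferon-inducible Ifi203 (0.0864) and the glutathione transferase Gstt1 (0.0942) outside the class I chains. H2-Q4, at 0.0771, was as near to B2m as any of these, although the 2 genes lie on different chromosomes, and H2-T22 followed at 0.128. Some of the similar genes were low, where this scale understates the change. Mean control and irradiated levels were 0.28 and 1.43 FPKM for Angel1, 0.79 and 4.23 for Cxcl2 and 1.40 and 5.94 for Ifi203. Angel1 passed the filter only through the irradiated libraries.

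Other class I and class I-like heavy chains were called higher in 5 cases. Of 21 listed, 20 were in the table and 10 were tested. Of these 10, 5 were called higher and 0 lower, beside 9.24% of all genes called higher. Their median log2 fold change was 0.84. H2-T10, a near copy of H2-T22, was at 2.18, 2.7 and 1.91 FPKM in the controls and 7.95, 8.65 and 5.85 FPKM in the irradiated libraries (log2 fold change 1.37, limma adjusted p = 0.00819). Control 3 was its lowest control, unlike that of H2-T22. On the log2 scale the protein C receptor Procr rose by 0.85, H2-Q1 by 0.82 and the lipid-presenting Cd1d1 by 0.73 (limma adjusted p = 0.0157, 0.0241 and 0.0476). H2-T24, at 0.22 to 0.28 FPKM in the controls and 1.37 to 1.66 FPKM in the irradiated libraries, passed the filter only through the group where it is high, so its call (0.99, limma adjusted p = 0.00521) is no independent support, and without it 4 of 9 were called, with a median of 0.82. Mr1, which presents vitamin B metabolites, had a log2 fold change of 0.89 (limma adjusted p = 0.205), with control 3 at 34.15 FPKM, above all irradiated libraries. Fcgrt, the neonatal Fc receptor that also pairs with B2m, had one of -0.19 (limma adjusted p = 0.422). H2-T10 was called in 3 of the 6 fits with a library left out, with an adjusted p of up to 0.099. With control 1, 2 or 3 left out, 1, 4 and 9 of 10 were called higher (1.48, 4.01 and 45.8% of all genes), and with irradiated 1, 2 or 3 left out 0, 0 and 1 of 9 (0.424 to 0.782% of all genes).

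Genes that make and load the peptides of class I molecules were called higher in several steps of the pathway. Of 13 tested, 7 were called higher and 0 lower, beside 9.24% of all genes called higher. Their median log2 fold change was 0.56. The peptide transporter subunits Tap1 and Tap2 rose by 1.11 and 0.50 on the log2 scale (limma adjusted p = 0.00586 and 0.0469), and Tapbp, or tapasin, which bridges the transporter and the heavy chain, by 1.21 (0.00905). Tapbpl, a tapasin relative, rose by 0.56, the peptide-trimming Erap1 by 1.40, and the immunoproteasome subunits Psmb8 and Psmb9 by 0.90 and 0.77 (adjusted p = 0.0449, 0.0385, 0.0195 and 0.0464). Tap1 shows the size of this rise beside that of H2-K1, with 11.9, 11.4 and 11.6 FPKM in the controls and 26.1, 29.97 and 23.2 FPKM in the irradiated libraries. The immunoproteasome subunit Psmb10 did not pass the test (log2 fold change 0.59, limma adjusted p = 0.171). Nor did the proteasome activator subunits Psme1 and Psme2 (0.36 and 0.38, limma adjusted p = 0.236 and 0.187). The general chaperones Calr, Pdia3 and Canx, which also serve other glycoproteins, had log2 fold changes of -0.00, 0.03 and 0.47 and did not pass it either (limma adjusted p = 0.995, 0.875 and 0.283). In fits without control 1, 2 or 3 the calls were 1, 3 and 8 of 13, beside 1.48, 4.01 and 45.8% of all genes, and without irradiated 1, 2 or 3 they were 0, 0 and 1, beside 0.424 to 0.782%. Tap1 held its call in 4 of these 6 fits, with an adjusted p of up to 0.0783.

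Of 16 tested transcription factors known to act on class I promoters, 5 were called higher and 0 lower. Of all genes, 9.24% were called higher. The median log2 fold change of the 16 was 0.56. Nlrc5, the class I transactivator, was at 1.58, 1.65 and 2.77 FPKM in the controls and 7.12, 7.19 and 5.67 FPKM in the irradiated libraries (log2 fold change 1.37, limma adjusted p = 0.0108). Irf1, which binds the ISRE, was at 8.47, 6.52 and 21.5 FPKM against 34.7, 39.2 and 29.1 FPKM (1.58, adjusted p = 0.0488). For both, the groups were separate and control 3 was the highest control, as for most members. The interferon signalling factors Stat2 and Irf9 rose by 2.80 and 2.90 on the log2 scale (limma adjusted p = 0.00398 and 0.000526). Irf9 was called in 6 of 6 fits that leave out a library, Stat2 in 5 (adjusted p up to 0.0501), Nlrc5 in 2 (adjusted p up to 0.118) and Irf1 in 1 (up to 0.209). The NF-kB subunits Rela and Nfkb1 had log2 fold changes of 0.14 and 0.51 and did not pass the test (limma adjusted p = 0.452 and 0.268). The subunits of the RFX and NF-Y complexes did not pass it either. Rfx5 was at 1.12 (limma adjusted p = 0.0769) and Nfya at 0.61 (0.0701), both with separate groups. Nfyc also had separate groups but went the other way, at -0.41 (limma adjusted p = 0.0755). Rfxap, Rfxank and Nfyb were at 0.04, 0.01 and 0.05. Omitting control 1, 2 or 3 gave 3, 4 and 10 calls of 16 (1.48, 4.01 and 45.8% of all genes), and omitting irradiated 1, 2 or 3 gave 2, 3 and 3 (0.424 to 0.782% of all genes).

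Class II molecules, whose chains are encoded in the same complex, were at low levels. Of 11 listed genes in the table, 3 passed the filter and 1 was called higher, beside 9.24% of all genes. H2-DMa and H2-DMb1, which lie in the complex, did not pass the test (log2 fold change -0.22 and 0.47, limma adjusted p = 0.425 and 0.139). The gene called was Cd74, which lies on chromosome 18. Cd74, the invariant chain, rose from 0.87 to 2.71 FPKM in controls to 3.9 to 7.38 FPKM in irradiated libraries (log2 fold change 1.22, limma adjusted p = 0.0489), a call kept only without control 3 among the fits that leave out a library (adjusted p up to 0.209). The class II chains H2-Aa and H2-Eb1 stayed at or below 0.54 FPKM. Of the class I receptors of T and natural killer cells, 2 of 9 listed were in the table, at or below 0.05 FPKM.

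**Figure D4:**
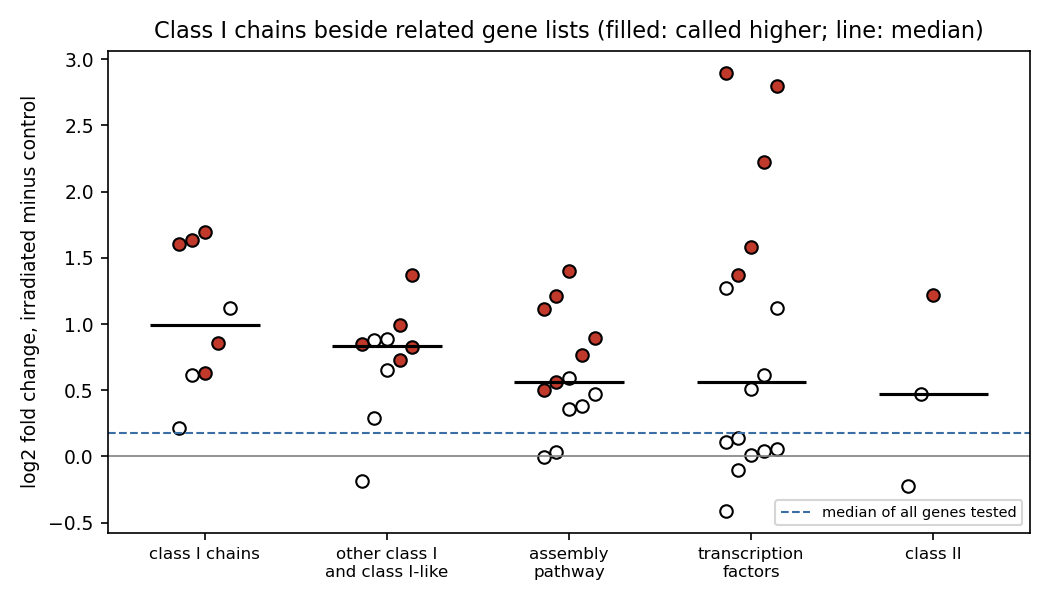
Log2 fold change, irradiated minus control, of each tested gene in 5 lists, filled where called higher, with the median of each list as a bar and that of all genes tested as a dashed line at 0.17. Medians are 0.99 for the class I chains, 0.84 for the other class I and class I-like chains and 0.56 for both the assembly pathway and the transcription factors.

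Class I genes lie among many other genes in the complex, whose values are given for comparison. The interval from H2-K1 to H2-M3 on chromosome 17 (33996012 to 37274485, 3.28 Mb) held 143 genes of the table. By symbol, 19 were class I heavy chains and 124 were others. Genes with a Gm symbol near the H2-T genes thus counted as others, and whether they are class I genes was not checked. Gm8909 was called higher (log2 fold change 1.01, limma adjusted p = 0.0464), and Gm11127 (-0.06) and Gm10499 (0.37) were not. Of the other genes 74 were tested, 15 were called higher (against 9.24% of all genes) and 1 lower, and their median log2 fold change was -0.04. With the 4 assembly genes that lie there set aside, 70 were tested, 11 were called higher and 1 lower, and the median was -0.06. The class I heavy chains of the interval had 7 of 11 called higher and a median of 0.88. They include H2-T24, which passed the filter only through the irradiated libraries, so its call is no independent support. H2-Q9, listed at 1714853 to 1719494 on the same chromosome, fell outside the interval and is not among them. It was tested and not called (log2 fold change 0.65, limma adjusted p = 0.0879). Complement C2 (1.74), the tubulin acetyltransferase Atat1 (1.17) and the ubiquitin ligase Trim26 (0.99) were among the neighbours called higher, and Nfkbil1, which fell by 1.00, was the neighbour called lower. The difference between class I genes and their neighbours was not tested. Omitting control 1, 2 or 3 left 1, 7 and 25 of 74 neighbours called higher (1.35, 9.46 and 33.8%, against 1.48, 4.01 and 45.8% of all genes), and omitting irradiated 1, 2 or 3 left 0, 0 and 1 (against 0.424 to 0.782% of all genes).

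**Figure D5:**
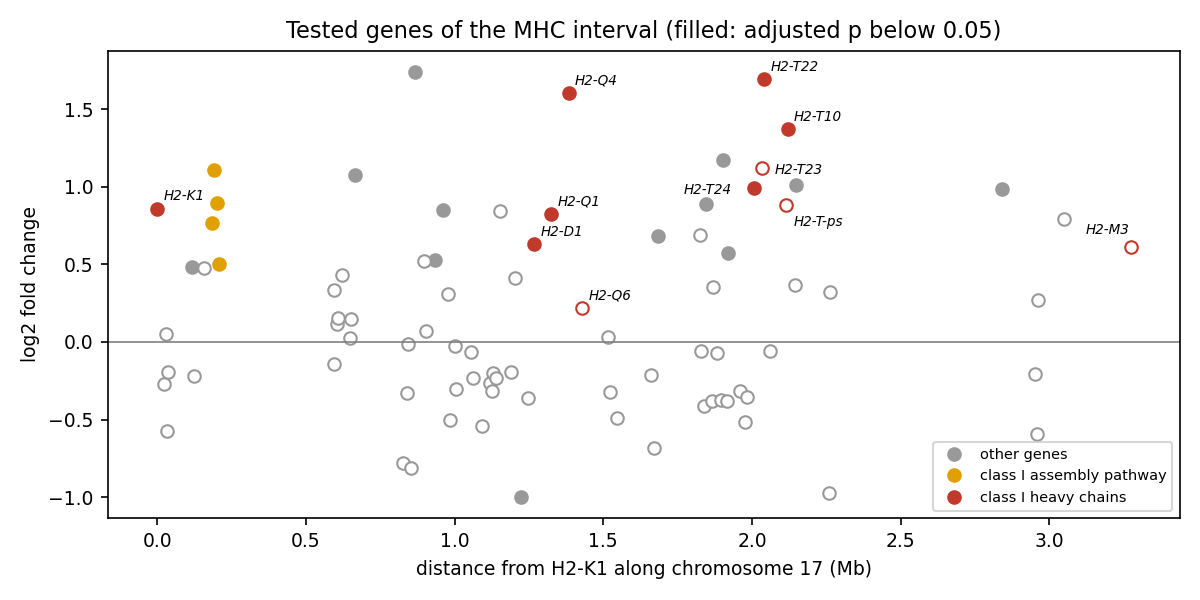
Log2 fold change of the tested genes of the complex by distance from H2-K1 along chromosome 17 in Mb, with class I heavy chains, assembly pathway genes and other genes in 3 colours and called genes filled. Class I chains, taken by symbol and with H2-T24 included, lie above 0 at every position, with a median of 0.88. H2-Q6 falls below 0 under quantile normalization and H2-M3 against control 3 alone. The other genes scatter around their median of -0.04.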

How the data were processed

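RNA-seq was analysed from 6 libraries, 3 control and 3 irradiated. The values are FPKM as deposited by the authors, per the file headers, rounded to 2 decimals. Reads were aligned to GRCm38.p6 with HISAT, per the submitters' processing notes, and the counting tool, its treatment of reads that match several genes and the annotation are details not given in the sources used here. FPKM keeps no read number, so depth is unknown, no interval from counts is given, and no count model was used.

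Genes that reached 1 FPKM in 3 or more libraries (11103 of 17030) entered a linear model of log2(FPKM + 1) in limma 3.58.1 under R 4.3.3 (2 groups, trend and robust options, Benjamini-Hochberg adjustment over all genes tested, called at an adjusted p below 0.05). Fold changes on this scale understate the change of low genes. The fit assumes 1 variance for both groups, although controls varied more, so p-values are approximate. The sums and ratios were compared with exact permutation tests in scipy 1.17.1. The procedure was tested on simulated data with the same spread in both groups and no outlying library. That simulation therefore cannot show how sound the calls are with the unequal spread of these libraries. Positions and promoters are from RefSeq, and stretches of 50 and 100 bases shared between genes were counted in GENCODE M21 transcripts of protein-coding type.

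The members and the lists were chosen with earlier results of these data known. Named are all 9 members, members of the lists as examples (the result of 1 listed gene is not reported here), and the 3 genes most like H2-K1, H2-D1 and B2m. Alternatives were scaling of each library by its trimmed mean of log ratios (30% of ratios and 5% of levels trimmed at each end, without weights), quantile normalization, no filter, a filter at 5 FPKM, a pseudocount of 0.1, limma without trend and robust options, array weights, the library number as a replicate block, summed copies, control 3 as the only control, other sets of heavy chains, and each library left out in turn. The non-classical share without each library, the neighbours without assembly genes and the longer ISRE form were added after seeing the data.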

Additional observations from a re-analysis of the deposited data

How the results depend on the processing

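With 1 library left out, the calls were 0 to 7 members, 0 to 8 assembly genes, 0 to 9 other class I chains, 2 to 10 transcription factors and 0 to 25 neighbouring genes, beside 46 to 5067 of all genes (0.424 to 45.8%), and the 8 tested members had log2 fold changes above 0 in each of those 6 fits. The library numbers did not pair the libraries (correlations of -0.11, 0.02 and -0.16 between same-numbered ones), and with the replicate block the calls were 1, 1, 2, 3 and 2 in the same order of lists, beside 2.34% of all genes, with H2-Q4 the member called (adjusted p = 0.0454). The summed heavy chains differed by 0.87, 1.23 and 0.60 (log2) between same-numbered libraries, with a mean of 0.90 that pairing cannot change. Trimmed-mean scaling gave 3 members, 4 assembly, 3 other class I and 6 neighbouring genes. Across all genes it called 625 higher and 603 lower, and quantile normalization 645 and 601, against 1026 and 308. Quantile normalization left 3 other class I genes, and H2-Q6 turned to -0.12. A pseudocount of 0.1, or no filter, left 4 of 13 assembly genes, beside 7.09% and 6.49% of all genes called higher. A filter at 5 FPKM tested fewer genes and left 4 of 12 assembly, 3 of 7 other class I and 9 of 65 neighbouring genes, beside 5.69%. The fit used in Results called 9.24% of all genes higher. Array weights, whose estimate stopped before it converged, gave 8, 11, 10, 10 and 29, beside 54.0% of all genes called higher. With control 3 as the only control 32 neighbouring genes were called and H2-M3 turned to -0.31; that fit takes its spread from the irradiated libraries. Leaving out a library moved the log2 difference of the summed heavy chains within 0.81 to 0.98, that of the light to heavy chain ratio within 0.57 to 0.93, and the difference in non-classical share within 5.11 to 7.55 percentage points. The depth of the libraries is unknown, so no limit from it can be given for H2-Q7.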
